A study of Homo sapiens with 6 samples.

Results

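The genes described here encode chains of laminin-332, the membrane proteins of the hemidesmosome, the chains of laminin-511 and the linker protein nidogen-1. There are 9 of them (LAMA3, LAMB3, COL17A1, ITGA6, ITGB4, LAMA5, LAMB1, LAMC1 and NID1), out of 81496 gene symbols on the array. They were chosen by name, with earlier results of these data known, and each has 1 probe set carrying its symbol. The study compared total RNA of MCF10.AT1 and MCF10.AT1-R. MCF10.AT1 is a human mammary epithelial line, derived from MCF10A by an activated HRAS and regarded as preneoplastic. MCF10.AT1-R was obtained from these cells by growing them in fluvastatin, whose dose was raised from 1 µM over 5 µM to 20 µM. Fluvastatin is a statin, an inhibitor of the enzyme that makes mevalonate. Both lines were grown in the medium of MCF10.AT1, which contains horse serum, EGF, hydrocortisone and insulin. The source names call the MCF10.AT1 cells untreated, although the treatment text with the fluvastatin doses stands on the samples of both lines, and the sources used here do not settle this. Whether MCF10.AT1-R was in fluvastatin at harvest is not given in the sources used here. MCF10.AT1-R is 1 selected line, so its arrays repeat that line and not the selection. The limma p-values rest on the spread between arrays, pooled over the probe sets tested.

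There are 3 Clariom D arrays per line. Each gives 1 log2 value per probe set, made by RMA, which corrects background, gives all arrays 1 distribution and combines the probes of a set. The comparison used MCF10.AT1 arrays A01 and A02 and MCF10.AT1-R arrays B02, B03 and B04. A03, the MCF10.AT1 array that was removed in the study as an outlier, correlated with these 5 arrays at 0.779 to 0.795 over all transcripts, against 0.967 to 0.977 among the 5, and is shown apart. The hybridization controls, which are added to the labelled sample, averaged 10.35 and 10.80 on A01 and A02 and 10.83 to 11.33 on the MCF10.AT1-R arrays, a difference of 0.44 on the log2 scale, whose part in the results was not tested. On A03 they averaged 5.99. All 5 marker genes of basal breast epithelium fixed for the check of the cells (KRT5, KRT14, KRT17, TP63 and CDH3) lay above the negative control probe sets on all 5 arrays.

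Hemidesmosomes are the junctions that fasten the basal surface of epithelial cells to the basement membrane. Their core is the α6β4 integrin and collagen XVII, which bind laminin-332 outside the cell and, through plectin and dystonin, the keratin filaments inside. Laminins are trimers of an alpha, a beta and a gamma chain. LAMA3 and LAMB3 encode chains of laminin-332, and LAMA5, LAMB1 and LAMC1 those of laminin-511. In the breast, basal and myoepithelial cells lie on this membrane and carry the hemidesmosomes.

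LAMA3, LAMB3 and COL17A1 rose in MCF10.AT1-R by 4.18-, 3.01- and 3.64-fold. ITGB4 was 1.91-fold and ITGA6 1.27-fold higher without passing the test. LAMA5, LAMB1 and LAMC1 were lower by 1.21-, 1.59- and 1.41-fold, also without passing it, and NID1 was within the negative controls. Of the 9 genes, 7 remained after low and invariant probe sets had been removed, and 3 of these 7 passed an FDR of 5% in limma, all higher in MCF10.AT1-R. Over the 51457 probe sets tested, 0.758% were called higher and 0.447% lower. None of the 9 was called lower by limma, and 1 (LAMB1) was lower at an unadjusted p under 0.05. No overlap between the lines was seen in 8 of the 9 genes. MCF10.AT1-R was the higher line in 5 of them, an order seen in 12.9% of all probe sets tested, and the lower line in 3, an order seen in 13.8%. Of these 3, LAMA5 was removed by the filter and is not among the probe sets behind that share. Only NID1 had overlapping arrays. The median log2 change of the 9 genes, with LAMA5 and NID1 included though not tested, was 0.35. That of all 35766 symbols tested was -0.02.

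**Figure D1:**
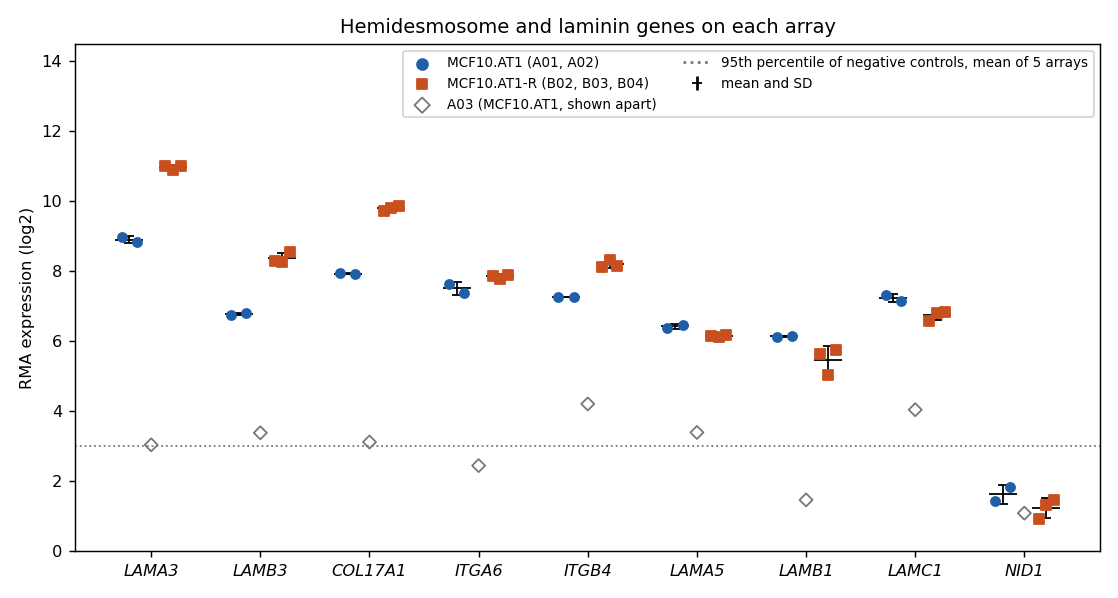
RMA expression (log2) of the 9 genes on each array. Circles are MCF10.AT1 (A01, A02), squares MCF10.AT1-R (B02, B03, B04), and open diamonds A03, with the mean and SD of each line in black and a dotted line at 2.99, the 95th percentile of the negative controls averaged over the 5 arrays. The squares lie clear above the circles for LAMA3, LAMB3, COL17A1 and ITGB4 and below them for LAMA5, LAMB1 and LAMC1, while A03 reads between 1.08 and 4.20.

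LAMA3 encodes the alpha chain of laminin-332. Its probe set (TC1800006897.hg.1) read 8.99 and 8.83 on A01 and A02 and 11.01, 10.89 and 11.02 on B02, B03 and B04. The lowest MCF10.AT1-R array was 1.90 above the highest MCF10.AT1 array. The rise was 2.06 on the log2 scale with a standard error of 0.31 (limma, adjusted p = 2.10e-08). It was the largest among the 9 genes, and 66 of the 35766 symbols tested rose by more.

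LAMB3 encodes the beta chain of the same trimer. It read 6.76 and 6.80 in MCF10.AT1 and 8.30, 8.27 and 8.54 in MCF10.AT1-R, so the lines were separated by 1.47. The rise of 1.59 on the log2 scale had a standard error of 0.31 (limma, adjusted p = 8.90e-05).

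COL17A1 encodes collagen XVII, the transmembrane collagen of the hemidesmosome, also known as the bullous pemphigoid antigen BP180. It read 7.95 and 7.92 in MCF10.AT1 and 9.71, 9.81 and 9.86 in MCF10.AT1-R. Its rise of 1.87 on the log2 scale (standard error 0.31; limma, adjusted p = 1.00e-06) lay between those of LAMA3 and LAMB3. Within each line its arrays differed by little, with SDs of 0.02 (n = 2) and 0.08 (n = 3).

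ITGB4 encodes the integrin chain found in hemidesmosomes, which pairs only with the α6 chain. It read 7.27 and 7.26 in MCF10.AT1 and 8.13, 8.31 and 8.14 in MCF10.AT1-R. The difference of 0.93 had a 95% confidence interval from 0.32 to 1.54 and did not pass (adjusted p = 0.140 from limma). The fit assigned every probe set a common SD of 0.34, above the residual SD of each of the 9 genes, which lay between 0.05 and 0.32. With limma's trend option, in which the variance follows the expression level, ITGB4 passed along with LAMA3, LAMB3 and COL17A1. Of the probe sets tested, 1.69% were then called higher. The adjusted p from limma with this option was 2.08e-08 for ITGB4 and 1.02e-158 for LAMA3. Values that small from 2 and 3 arrays are not taken as a measure of certainty. When low expression was the single filter, LAMA3, LAMB3 and COL17A1 passed (adjusted p = 0.00718, 0.0248 and 0.00980 from limma) and ITGB4 did not (adjusted p = 0.143), at 0.217% called higher.

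ITGA6 encodes the partner of ITGB4, which can also pair with the β1 chain. It read 7.63 and 7.38 in MCF10.AT1 and 7.87, 7.79 and 7.90 in MCF10.AT1-R. The arrays did not overlap, but the gap of 0.16 was smaller than the difference between A01 and A02. The log2 change was 0.35 with a 95% confidence interval from -0.27 to 0.96 (adjusted p = 0.834 from limma), so a rise of up to 0.96 is compatible with the arrays. On each array the log2 value of ITGB4 was compared with that of ITGA6, and this difference was -0.37 and -0.13 in MCF10.AT1 and 0.27, 0.52 and 0.24 in MCF10.AT1-R. It was larger in MCF10.AT1-R by 0.59 (exact permutation test, two-sided, p = 0.1, the smallest that 2 against 3 arrays allow).

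**Figure D2:**
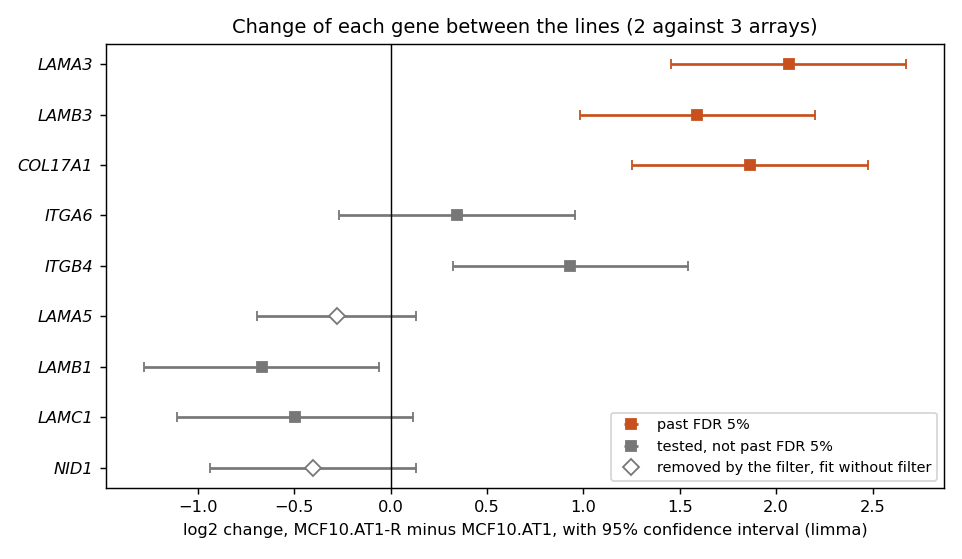
Log2 change of the 9 genes between the lines, MCF10.AT1-R minus MCF10.AT1, with 95% confidence intervals from limma over 2 and 3 arrays. Orange squares passed FDR 5% (LAMA3, LAMB3 and COL17A1), grey squares were tested and did not pass, and open diamonds (LAMA5 and NID1) were removed by the filter and come from a fit without it. The intervals of ITGA6, LAMC1, LAMA5 and NID1 include 0. NID1 lay within the negative controls, so its change is not read.

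The 3 laminin-511 chain genes were lower in MCF10.AT1-R, but LAMB1 and LAMC1 did not pass and LAMA5 was not tested. LAMB1, the beta chain of many laminins outside laminin-332, read 6.12 and 6.15 in MCF10.AT1 and 5.65, 5.02 and 5.74 in MCF10.AT1-R. B03 was lowest, and the log2 change of -0.67 was -0.44 without it. Its 95% confidence interval ran from -1.28 to -0.06 (adjusted p = 0.511 from limma). LAMC1, the gamma chain shared by most laminins, read 7.31 and 7.15 in MCF10.AT1 and 6.58, 6.81 and 6.83 in MCF10.AT1-R, which is a difference of -0.49 (95% confidence interval from -1.10 to 0.12; limma, adjusted p = 0.745). LAMA5, the alpha chain of laminin-511, read 6.38 and 6.47 in MCF10.AT1 and 6.13, 6.11 and 6.19 in MCF10.AT1-R. It was not tested, being among the least variable probe sets, and without a filter its log2 change was -0.28 (95% confidence interval from -0.69 to 0.13, adjusted p = 0.833 from limma). For these 3 genes the highest MCF10.AT1-R array was below the lowest MCF10.AT1 array.

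NID1 encodes nidogen-1, which links laminins to collagen IV. It read 1.43 and 1.82 in MCF10.AT1 and 0.91, 1.32 and 1.44 in MCF10.AT1-R, below the 95th percentile of the negative controls (2.88 to 3.14) on each of the 5 arrays. Its log2 change is drawn with the others and enters their median, but is therefore not read as a change in expression. The other nidogen gene, NID2, was within the negative controls on the same 5 arrays. In these bulk samples fewer cells that express a gene and less RNA of it per cell cannot be told apart.

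The chains were also compared on each array as differences of log2 values, which removes any scaling that an array shares. LAMA3 minus LAMA5 was 2.61 and 2.36 in MCF10.AT1 and 4.88, 4.78 and 4.83 in MCF10.AT1-R. LAMB3 minus LAMB1 was 0.64 on both MCF10.AT1 arrays and 2.66, 3.25 and 2.80 in MCF10.AT1-R. The differences grew by 2.34 and 2.26, so the ratio of the laminin-332 chain to the laminin-511 chain was 5.07- and 4.79-fold higher in MCF10.AT1-R. In all, 5 such differences were compared, these 2 and 3 of integrin chains, and each had p = 0.1 in an exact two-sided permutation test, before and after Benjamini-Hochberg adjustment. Since probe sets differ in their response, only the change of a difference between the lines is read, not its level.

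**Figure D3:**
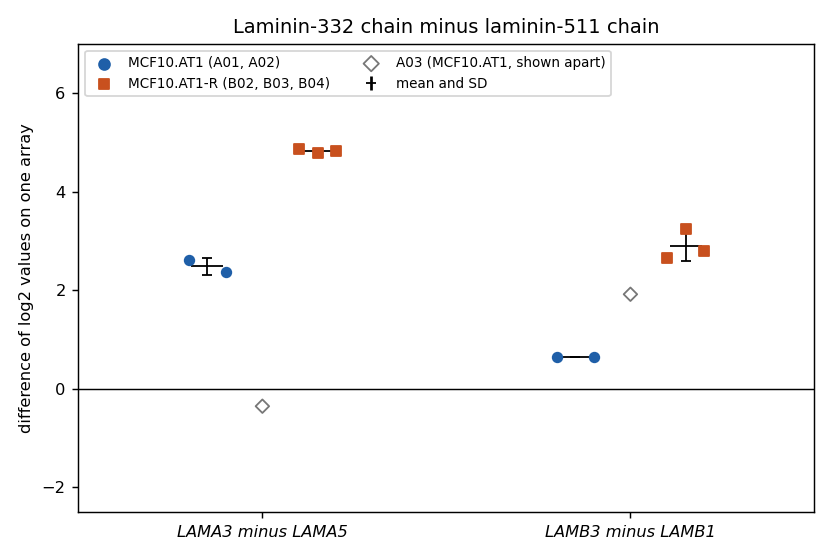
Difference of log2 values on one array between a laminin-332 chain and the corresponding laminin-511 chain, with the mean and SD of each line in black. The MCF10.AT1-R squares lie above the MCF10.AT1 circles for both, by 2.34 and 2.26 on average, and A03 (open diamonds) reads -0.35 and 1.92.

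The promoters of the genes that rose together and of LAMB1, which was lower, are shown for comparison. Human sequences of 250 bases before to 50 bases after an annotated start (RefSeq, GRCh38.p14, strand of the gene, 5′ to 3′) were found for 8 of the 9 genes, in 11 windows. Each window was searched on both strands for the AP-1 motif TGANTCA, the GC box GGGCGG, the TEAD motif GGAATG, the TATA box TATAAA and the sterol regulatory element TCACNCCAC. Capitals mark matches to the AP-1 motif. The LAMA3 window is chr18:23872770-23873069 (plus strand, a start that lies within the gene). LAMB3 has 3 windows, and the one shown, chr1:209651325-209651624 (minus strand), is the only one with an AP-1 match. The others shown are COL17A1 at chr10:104085831-104086130 (minus strand) and LAMB1 at chr7:108003112-108003411 (minus strand).
LAMA3: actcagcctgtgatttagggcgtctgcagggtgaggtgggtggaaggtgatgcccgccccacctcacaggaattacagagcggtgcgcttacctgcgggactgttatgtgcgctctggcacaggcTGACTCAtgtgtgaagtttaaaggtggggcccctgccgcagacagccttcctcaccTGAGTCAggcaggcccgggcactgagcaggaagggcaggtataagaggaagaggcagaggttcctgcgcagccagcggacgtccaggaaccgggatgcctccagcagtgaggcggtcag
LAMB3: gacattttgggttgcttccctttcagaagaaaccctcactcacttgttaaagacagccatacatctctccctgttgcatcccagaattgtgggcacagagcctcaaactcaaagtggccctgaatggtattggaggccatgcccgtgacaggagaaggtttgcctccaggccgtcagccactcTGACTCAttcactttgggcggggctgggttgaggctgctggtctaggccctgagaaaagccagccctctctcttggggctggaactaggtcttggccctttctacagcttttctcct
COL17A1: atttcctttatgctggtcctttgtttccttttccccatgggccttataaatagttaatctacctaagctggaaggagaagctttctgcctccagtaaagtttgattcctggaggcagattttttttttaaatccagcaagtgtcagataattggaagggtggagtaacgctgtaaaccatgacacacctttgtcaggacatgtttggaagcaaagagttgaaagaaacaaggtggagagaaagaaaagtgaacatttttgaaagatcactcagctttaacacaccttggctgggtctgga
LAMB1: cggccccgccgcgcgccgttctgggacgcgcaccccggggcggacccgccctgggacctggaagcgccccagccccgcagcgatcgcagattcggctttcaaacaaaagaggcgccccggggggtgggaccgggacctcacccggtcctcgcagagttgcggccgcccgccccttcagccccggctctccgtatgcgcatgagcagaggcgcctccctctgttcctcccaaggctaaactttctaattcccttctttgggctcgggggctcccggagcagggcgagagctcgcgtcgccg

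The LAMA3 window holds the AP-1 motif at 125 and at 69 bases before the start, and the LAMB3 window at 67 bases before it. Of all 35116 windows of this length in the table, 7.71% hold at least 1 match and 0.515% hold 2 or more. The other LAMB3 windows, which overlap each other, and the windows of COL17A1, ITGA6, LAMA5, LAMB1, LAMC1 and NID1 hold none. A GC box was found in 10 of the 11 windows, all but that of COL17A1, against 45.0% of all windows. These windows are not independent. The overlapping LAMB3 windows hold the same GC box, and the ITGA6 windows, which also overlap, share 1. The TATA box letters occur in COL17A1, 206 bases before the start, and in one ITGA6 window, 32 bases before it, against 11.5% of all windows. Neither the TEAD motif (14.0% of all windows) nor the sterol regulatory element (1.13%) was found in any of the 11. The G and C content was 40.7% for COL17A1, 61.7% for LAMA3, 53.7% to 61.3% for LAMB3, 53.0% and 72.0% for the ITGA6 windows, and 71.0% to 82.7% for LAMA5, LAMB1, LAMC1 and NID1. These matches describe letters in a window and are not evidence of binding.

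Genes that work with the 9 were taken from lists of the hemidesmosome and the basement membrane, also chosen with earlier results known. Among 6 genes that join hemidesmosomes to keratins or stabilise them, KRT14 and KRT5, the keratin pair of basal epithelium, rose and none fell. KRT14 read 5.94 and 5.85 in MCF10.AT1 and 8.20, 8.08 and 8.52 in MCF10.AT1-R, and rose by 2.37 on the log2 scale (limma, adjusted p = 2.36e-11). KRT5 rose by 1.71 (limma, adjusted p = 1.35e-05). In limma without the trend option the linkers between integrin and keratin did not pass. DST, the gene of dystonin, changed by 0.55 (95% confidence interval from -0.06 to 1.16, adjusted p = 0.687 from limma), without overlap of the arrays. With the trend option DST passed (adjusted p = 0.0111 from limma), and with the low-expression filter alone it did not (adjusted p = 0.451). PLEC, the gene of plectin, was removed as invariant, and its log2 change without a filter was 0.07 (95% confidence interval from -0.36 to 0.49). CD151, a tetraspanin that binds the α6β4 and α3β1 integrins, changed by 0.40 (adjusted p = 0.813 from limma). The median log2 change of the 6 genes was 0.47.

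Of 6 further laminin chain genes 4 were tested and none was called by limma, with 1 higher and none lower at an unadjusted p under 0.05. Their median log2 change was -0.03. LAMA1, the 1 higher gene, read 2.06 and 1.77 in MCF10.AT1 and 2.85, 2.87 and 2.61 in MCF10.AT1-R. All these values were within the negative controls, so its change is not read. Of the 5 laminin receptors outside the hemidesmosome 2 were tested, none was called by limma, and none had an unadjusted p under 0.05. ITGA3 and ITGB1, which form the α3β1 integrin, a second receptor of laminin-332, changed by -0.08 and 0.24, and both were removed as invariant. The log2 value of ITGB4 minus that of ITGB1 was -2.95 and -3.16 in MCF10.AT1 and -2.41, -2.20 and -2.48 in MCF10.AT1-R. This difference grew by 0.69 (exact permutation test, two-sided, p = 0.1). ITGA6 minus ITGA3 grew by 0.42, with the same p.

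Among 19 other basement membrane genes, 10 were tested and none passed in limma without the trend option. At an unadjusted p under 0.05, 1 was higher (TINAGL1) and 1 lower. The lower one was within the negative controls on all 5 arrays, so its change is not read. The median log2 change of the 19 genes was 0.12. TINAGL1, a matrix glycoprotein gene, read 6.25 and 5.85 in MCF10.AT1 and 6.82, 6.70 and 6.92 in MCF10.AT1-R (log2 change 0.76, adjusted p = 0.362 from limma). With the trend option it passed (adjusted p = 0.00660 from limma). NID2 read 0.68 and 0.78 in MCF10.AT1 and 1.13, 1.33 and 1.87 in MCF10.AT1-R, all within the negative controls, and its change is not read. Of 6 genes of proteases that process laminin-332 or shed collagen XVII, TLL1, a relative of BMP1, was called higher (adjusted p = 0.0127 from limma). It read 1.84 and 1.76 in MCF10.AT1 and 3.21, 3.16 and 2.67 in MCF10.AT1-R, so both MCF10.AT1 arrays and B04 were within the negative controls, and with the low-expression filter alone it did not pass (adjusted p = 0.138). No bound on its fold change exceeded 1.

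**Figure D4:**
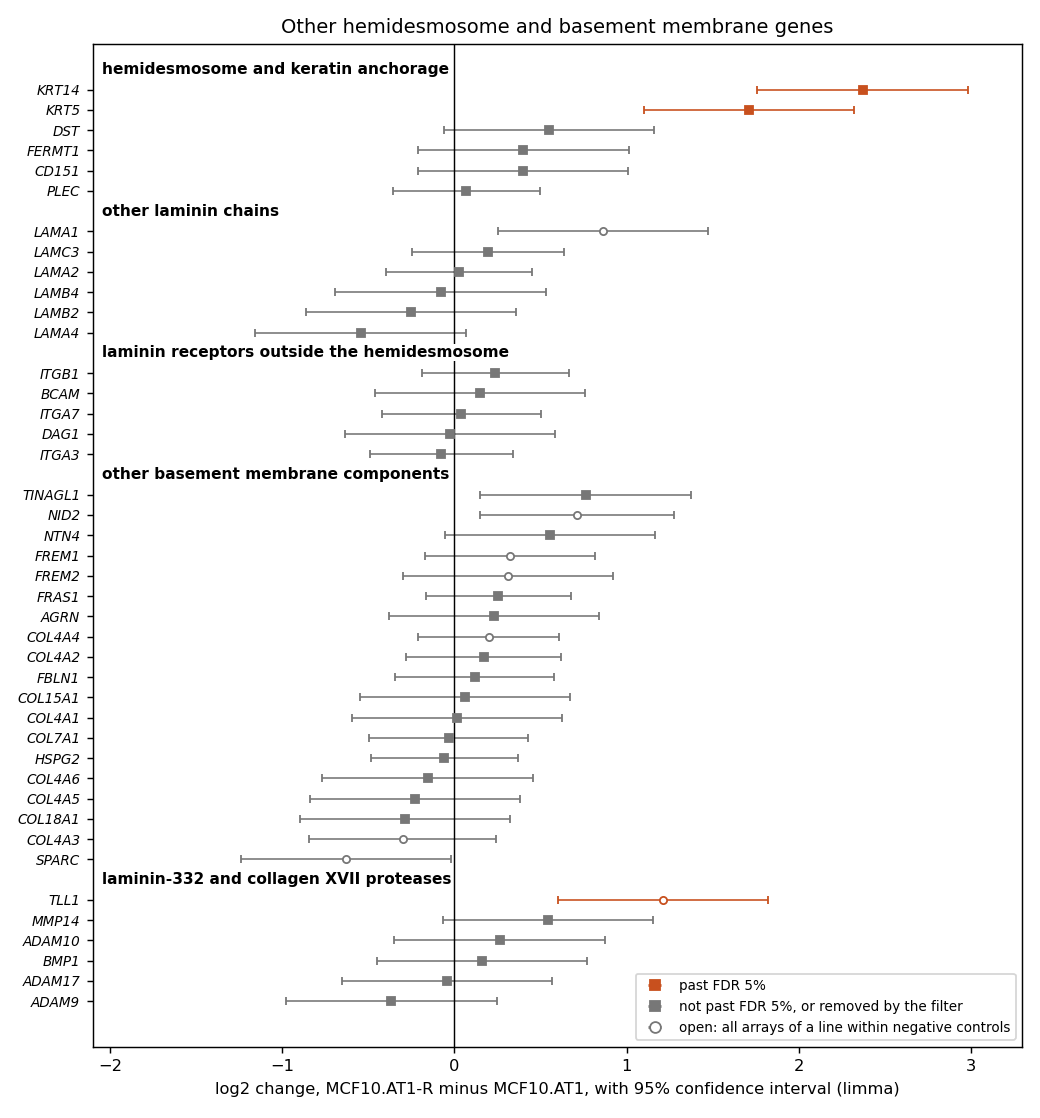
Log2 change, MCF10.AT1-R minus MCF10.AT1, with 95% confidence intervals from limma, for the listed genes of the hemidesmosome and basement membrane that are not among the 9. Orange symbols passed FDR 5% (KRT14, KRT5 and TLL1), grey ones did not or were removed by the filter, and open circles mark genes for which all arrays of a line lay within the negative controls.

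At least 1 marker of each cell type checked was called higher or lower, and their part in the results was not tested. Of the 5 basal markers 4 rose, and their summed log2 level was 33.5 to 34.0 in MCF10.AT1 and 44.4 to 44.9 in MCF10.AT1-R. KRT5 and KRT14 belong to this list and to that of the hemidesmosome. Of the 6 markers of cornifying keratinocytes 3 (IVL, KRT1 and CDSN) rose, with a summed level of 19.0 to 19.3 in MCF10.AT1 and 24.0 to 26.1 in MCF10.AT1-R. LOR was within the negative controls on 4 of the 5 arrays and FLG on all 5. Of the 5 luminal markers 2 (KRT8 and KRT19) rose, with sums of 31.3 to 32.2 and 35.8 to 37.0. KRT18 was higher by 0.85 without overlap of the arrays, but was not called. ESR1 changed by -0.43 without being called, and was within the negative controls on 3 of the 5 arrays. GATA3 changed by 0.18 and was removed by the filter. Fibroblasts make LAMB1, LAMC1 and NID1 as well. Of 7 fibroblast markers 2 were tested and DCN fell, with a log2 change of -2.15. COL1A1, COL1A2 and COL3A1 changed by 0.15, 0.13 and -0.16 and were not tested, being removed by the filter. LUM and PDGFRB did not exceed the negative controls on any of the 5, and THY1 was within them on 4. The sums of all 7 were 29.6 to 30.1 in MCF10.AT1 and 27.2 to 29.1 in MCF10.AT1-R. Of 4 endothelial markers 2 were tested and PECAM1 fell (log2 change -1.12), with sums of 13.4 to 13.8 and 11.6 to 12.7. VWF changed by -0.003 and was removed by the filter, and CDH5 changed by -0.19 without being called. KDR was within the negative controls on all 5 arrays. Of 3 leukocyte markers 2 were tested and CD14 fell (log2 change -1.12), with sums of 9.11 to 10.75 and 8.97 to 9.05. CD3E changed by 0.04 without being called, and PTPRC was within the negative controls on all 5.

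The gene symbols with values most like those of LAMA3 over the 5 arrays, after the MCF10.AT1 mean of each had been subtracted, were MYO5B, DSG3 and SPRR1A. Their root mean square distances from LAMA3 were 0.055, 0.060 and 0.066 on the log2 scale, and their log2 changes were 2.01, 2.04 and 2.13. DSG3 encodes a desmosomal cadherin, SPRR1A a cornified envelope protein and MYO5B a myosin motor. For LAMB1, the gene with the lowest change among the 9, the nearest symbols were waslawbu, GPAT3 and moheya, at 0.046, 0.049 and 0.055, with log2 changes of -0.65, -0.68 and -0.68. Each likeness rests on the 2 and 3 arrays of the lines.

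**Figure D5:**
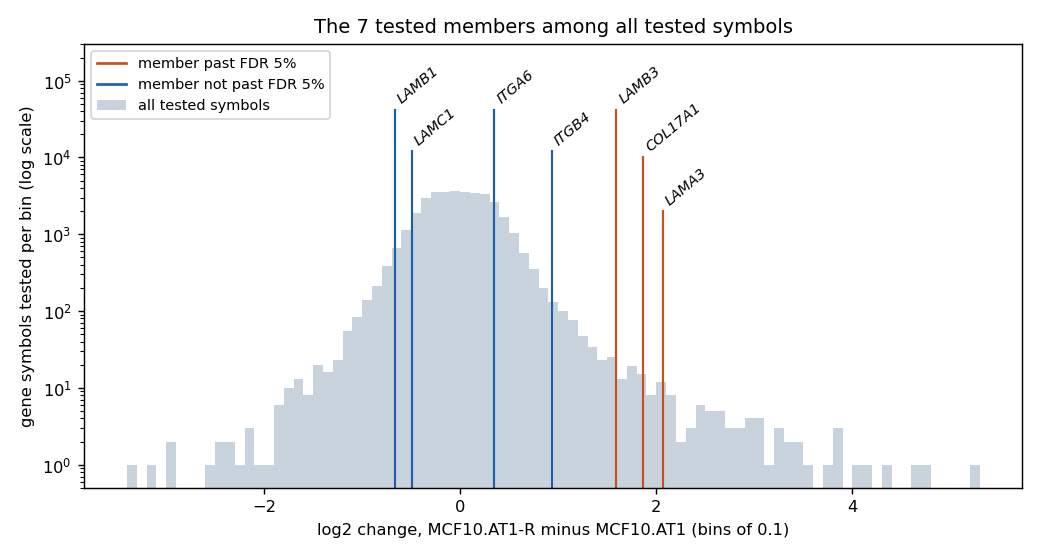
Number of tested gene symbols per bin of log2 change (log scale), MCF10.AT1-R minus MCF10.AT1, with lines at the 7 tested genes. LAMA3 (2.06), COL17A1 (1.87) and LAMB3 (1.59), in orange, lie in the upper tail, where 66, 86 and 132 of the 35766 symbols rose by more, and ITGB4, ITGA6, LAMC1 and LAMB1, in blue, lie nearer the centre.

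A03 was given to MCF10.AT1 by its array name, and read below every one of the other 5 arrays for 8 of the 9 genes. Outside the 9, it also read lowest for ITGA3 (4.41) and ITGB1 (2.92), but highest for COL1A1 (7.51). The share over all probe sets was not counted. The hybridization controls of A03 averaged 5.99, against 10.35 to 11.33 on the other 5. LAMA3 was 3.03 on it, LAMB3 3.38, COL17A1 3.11, ITGA6 2.44 and ITGB4 4.20. With A03 counted as MCF10.AT1, none of the 9 genes passed FDR 5%. LAMA5, LAMB1 and LAMC1 then changed direction, to 0.73, 0.89 and 0.57, since A03 read 3.39, 1.46 and 4.04 for them.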

How the data were processed

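Clariom D arrays were made from total RNA of 3 replicates each of MCF10.AT1 and MCF10.AT1-R. The authors processed them by RMA with the Bioconductor packages affy and oligo and deposited log2 values, unfiltered, for 138745 probe sets, of which 2995 controls were left out of the comparison. The genome build is not given in the sources used here. The array names carry a letter, A or B. The letter was read as the line because the study removed A03 and then kept 2 MCF10.AT1 arrays.

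The 9 genes and all lists were chosen with earlier results of these data known. The test was limited to the 51457 probe sets that exceeded the median of the probe set means (1.88) and the lower quartile of the SDs (0.18). They were fitted with limma 3.58.1 in R 4.3.3 and adjusted by Benjamini-Hochberg. A gene removed by the filter is given from the fit without it and not counted as called. A symbol with several probe sets is given by the one with the highest mean. The filter led limma to a common SD of 0.34 for every probe set. The scripts were tested on simulated data. Values at or below the 95th percentile of the 612 negative controls of an array count as within them. Named from the lists were DST, PLEC, CD151, ITGA3 and ITGB1, every gene past FDR 5% and the 3 next largest changes. For likeness, the 3 nearest symbols were taken. The markers were not chosen by this rule. One list gene is not reported here. The number of arrays limits the precision.

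The alternatives changed the arrays, the array weights, the filter, the variance model, the normalization, the probe set rule, the floor and the threshold. The low-expression filter combined with the trend option was added after the data had been seen.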

Additional observations from a re-analysis of the deposited data

How the results depend on the processing

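LAMA3, LAMB3 and COL17A1, called higher over the 5 arrays, were called under every one of the 16 other settings except the one with A03 added back, where the count was 0 and their log2 changes were 4.02, 2.72 and 3.47. With each array left out in turn 3 genes were called, the log2 change of LAMA3 lay between 1.99 and 2.14, that of COL17A1 between 1.83 and 1.91 and that of LAMB3 between 1.51 and 1.64, and the highest adjusted p was 0.0244 (LAMB3, limma). ITGB4 was also called in 3 settings, namely with the trend option, with that option and the low-expression filter alone, and with values raised to the negative controls. No setting called any of the 9 genes lower. LAMA5, LAMB1 and LAMC1 reversed with A03 added back, to 0.73, 0.89 and 0.57, and the change of NID1 was 0 with values raised to the negative controls. Of 135 values of the 9 genes under 15 settings, 125 kept their direction and their side of the threshold.

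The number of probe sets called, 620, was 26 with A03 added back, 182 with the low-expression filter alone, 177 without a filter, 1377 with the trend option, 1086 with that option and the low-expression filter alone, and 272 with values raised to the negative controls. With 1 array left out it ranged from 271 to 595, and was 314 without A01 and 271 without A02, where the spread came from MCF10.AT1-R and was assumed to hold for the lone MCF10.AT1 array. The lower counts with fewer arrays come with fewer samples, and the cause of the others was not tested. No paired analysis was possible because the numbers in the array names match no replicate label, and the 5 arrays share only 1 such number (that of A02 and B02) between the lines.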
